A study of Rattus norvegicus and Bos taurus with 6 samples.

Results

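The collagen V genes Col5a1, Col5a2 and Col5a3 were followed through 6 single-nucleus RNA-seq libraries of adipose tissue. They are 3 of the 38697 genes listed in the rat Parse files, 3 of the 25629 genes in the 10x Genomics file and 3 of the 36075 genes in the cow file, and each was found by its symbol as a single row in every file. The genes were chosen by measured values, because Col5a3 ranks the third by number of transcripts in a Parse library of white fat and because of its co-detection with adipocyte markers, so the levels and co-detection below are a description and no test was made on them. The rat tissues were mesenteric perivascular adipose tissue (mesPVAT, white fat around the mesenteric vessels), retroperitoneal (RP) fat, thoracic aortic perivascular adipose tissue (taPVAT, brown fat) and subscapular brown adipose tissue (BAT), all from untreated male Dahl SS rats (SS/HsdMcwiCrl) kept at 22 °C. The cow tissue was subcutaneous flank white adipose tissue (cow WAT) of female lactating Holstein cattle. Tissues were snap-frozen. All tissues were run with the Parse kit, which barcodes RNA inside fixed nuclei, and mesPVAT was also run with the 10x Genomics droplet kit, in another batch. Each tissue and kit had 1 library, so the values have no replicate error, the intervals given are exact 95% intervals that cover counting error only, and neither the ages of the animals nor the number of animals behind a library is given in the sources used here.

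Collagen V is a fibril-forming collagen that is built from 3 chains, assembles together with the more abundant collagen I, and is known to start and to limit the growth of its fibrils. Col5a1 and Col5a2 encode the chains of its widespread form, which is made mainly by fibroblasts. Col5a3 encodes a chain of more restricted distribution that is known from adipose tissue, muscle and peripheral nerve, binds the heparan sulfate proteoglycan glypican 1, and is required in mice for normal adipose tissue and glucose handling. In adipose tissue, mature adipocytes lie in a shell of basement membrane and collagen fibrils, and stromal progenitors (adipocyte stem and progenitor cells, ASPCs) are the usual source of fibrillar collagen.

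The rat genes lie on separate chromosomes. In the GRCr8 build, RefSeq places Col5a1 (ENSRNOG00000008749) on the plus strand at chr3:31606475-31755097, Col5a2 (ENSRNOG00000003736) on the minus strand at chr9:54940768-55090151, and Col5a3 (ENSRNOG00000020525) on the minus strand at chr8:27580768-27626002. Col5a3 overlapped 0 other RefSeq genes, with Rdh8 as the nearest neighbour at 3378 bases and Olfm2 on the other side at 22352 bases. Col5a1 also overlapped 0 genes, and the Col5a2 span holds 1 pseudogene, LOC120094964, whose reads cannot be told apart here. The spans were 149 kb for Col5a1, 149 kb for Col5a2 and 45.2 kb for Col5a3. The cow genes are ENSBTAG00000047998 (COL5A1), ENSBTAG00000027020 (COL5A2) and ENSBTAG00000010179 (COL5A3).

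Because the genes differ below in the nuclei that hold their transcripts, their start-site windows are shown for comparison. Each window is a fixed stretch around a start that RefSeq assigns (GRCr8, 250 bases before to 50 bases after it, 5′ to 3′ on the strand of the gene). The windows are chr3:31606630-31606929 (plus strand), chr9:55090102-55090401 (minus strand) and chr8:27625899-27626198 (minus strand). The start used for the window lies 405 bases inside the gene span given above for Col5a1 and 54 bases inside it for Col5a3, and at the end of the span for Col5a2, so the windows of the first pair are not the sequence before the outermost start. Capitals mark matches to CCAAT or GGGCGG on either strand.
Col5a1: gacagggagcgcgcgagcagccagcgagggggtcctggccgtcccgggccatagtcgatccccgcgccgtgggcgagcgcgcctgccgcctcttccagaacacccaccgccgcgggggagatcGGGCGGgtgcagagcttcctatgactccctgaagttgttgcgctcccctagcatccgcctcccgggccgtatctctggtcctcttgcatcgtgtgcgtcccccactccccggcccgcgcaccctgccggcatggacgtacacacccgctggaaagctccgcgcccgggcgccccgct
Col5a2: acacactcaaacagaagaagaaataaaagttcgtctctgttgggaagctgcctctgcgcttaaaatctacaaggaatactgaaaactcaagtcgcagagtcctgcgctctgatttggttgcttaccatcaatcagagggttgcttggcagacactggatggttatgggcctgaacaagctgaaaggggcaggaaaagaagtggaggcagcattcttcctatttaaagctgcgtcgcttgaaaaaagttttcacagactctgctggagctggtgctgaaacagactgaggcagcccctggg
Col5a3: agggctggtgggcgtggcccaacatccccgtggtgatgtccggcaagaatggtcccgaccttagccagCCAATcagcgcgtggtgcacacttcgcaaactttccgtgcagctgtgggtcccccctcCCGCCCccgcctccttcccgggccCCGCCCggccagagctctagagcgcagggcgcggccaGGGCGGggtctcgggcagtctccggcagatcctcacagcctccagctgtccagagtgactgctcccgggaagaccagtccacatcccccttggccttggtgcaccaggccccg

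The windows of Col5a1 and Col5a3 were rich in G and C, at 72.0% and 69.0%, against 47.7% for Col5a2 and a median of 51.7% over 33469 RefSeq rat promoter windows. The Col5a3 window held 3 matches to GGGCGG, the GC box, and 1 to CCAAT, and the Col5a1 window held 1 match to GGGCGG. In the Col5a2 window, neither set of letters was found. Of all windows, 33.1% held GGGCGG and 37.5% held CCAAT. Matches to TATAAA (14.2% of windows) and to the E-box CACGTG (6.42%), searched on both strands as well, were 0 in all 3 windows. A match is a description of letters and not a site in use, and the absence of these letters from the windows says nothing about the factors.

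The libraries held 845316 to 16827260 unique molecular identifiers (UMIs, counted transcripts) over 2297 to 5887 nuclei, and the median UMIs per nucleus ranged from 161 in the 10x Genomics library to 3530 in cow WAT. Pairs of libraries shared 0 nucleus barcodes. In the files, the Parse library labelled mesPVAT had a median of 304 genes per nucleus and that labelled RP fat 197. The study gives these depots in the reverse order. The largest nucleus held 41374 UMIs in the library labelled mesPVAT and 5611 in that labelled RP fat, and these had 3028 and 2805 nuclei. The study gives RP fat the larger maximum and the larger number of cells. Each depot is therefore called here by its label, and the files do not tell whether labels or text are crossed. Comparisons within a library do not rest on this. Nuclei led by the brown adipocyte markers (defined below) made up 6.50% of taPVAT and 6.78% of BAT nuclei. In the white libraries they made up 0.0679% to 0.661%. No marker was chosen to separate mesPVAT from RP fat. Nuclei led by mesothelial markers made up 3.28% of the 10x Genomics mesPVAT library. The Parse library labelled mesPVAT had 0.462% (14 nuclei) and that labelled RP fat 0.0357% (1 nucleus). Nuclei led by adipocyte markers made up 30.9%, 23.1% and 5.81% in the same order. Whether these shares bear on the labels was not tested. Nuclei with the adipocyte genes Plin1 or Adipoq were found in every library, with PLIN1 alone standing for the pair in cow WAT because ADIPOQ is not named in that file.

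Col5a3 set the white rat depots apart from the brown ones, and one library apart from all others. Levels are given as CPM, the UMIs of a gene summed over all nuclei of a library per 1000000 UMIs of all genes. Col5a3 was at 5469 CPM (5357 to 5582) in the Parse library labelled mesPVAT, 1118 CPM (1060 to 1179) in the 10x Genomics mesPVAT library, 574 CPM (524 to 627) in the library labelled RP fat, 515 CPM (504 to 526) in cow WAT, 271 CPM (258 to 284) in BAT and 256 CPM (243 to 271) in taPVAT. In that order, BAT and taPVAT did not differ beyond counting error (ratio 1.06, 0.982 to 1.14), whereas each of the other neighbours did, with ratios from 1.11 (1.02 to 1.22) between RP fat and cow WAT to 4.89 (4.62 to 5.18) between the Parse and 10x Genomics libraries labelled mesPVAT. In the Parse library labelled mesPVAT, 9060 UMIs put Col5a3 at the third place among all genes, and in the other libraries its place was 51 (RP fat), 63 (10x Genomics), 159 (cow WAT), 569 (BAT) and 596 (taPVAT). Kit, isolation protocol, batch and the reference used for counting all differed between the libraries labelled mesPVAT, whether they came from the same animals is not given, and the depot of the Parse library is subject to the doubt about labels, so the parts of these in the difference cannot be told apart. If the Parse labels were crossed, Col5a3 in mesPVAT would stand at 574 CPM with the Parse kit against 1118 CPM with the 10x Genomics kit, the opposite direction.

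The chains of the widespread form varied less. Col5a1 was at 484 CPM (451 to 519) in the Parse library labelled mesPVAT, 481 CPM (443 to 521) in the 10x Genomics library, 479 CPM (469 to 490) in cow WAT, 302 CPM (266 to 341) in RP fat, 290 CPM (275 to 305) in taPVAT and 234 CPM (222 to 246) in BAT. Neighbours among the first 3 of these did not differ beyond counting error, nor did RP fat from taPVAT. Where Col5a3 was 4.89-fold higher in the Parse library labelled mesPVAT than in the 10x Genomics library, Col5a1 had a ratio of 1.01 (0.904 to 1.12) between the same libraries. Col5a2 was at 689 CPM (676 to 701) in cow WAT, 539 CPM (499 to 581) in the 10x Genomics library, 401 CPM (371 to 433) in the Parse library labelled mesPVAT, 177 CPM (150 to 208) in RP fat, 120 CPM (111 to 130) in taPVAT and 95.3 CPM (87.8 to 103) in BAT, and all neighbours in this order differed beyond counting error. Col5a2 was thus lowest in the brown depots, as Col5a3 was. Col5a1 was lowest in BAT, and its level in taPVAT did not differ from that in RP fat beyond counting error. Parts of the BAT library, given below, spread more widely in Col5a2 than BAT and taPVAT differed.

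**Figure D1:**
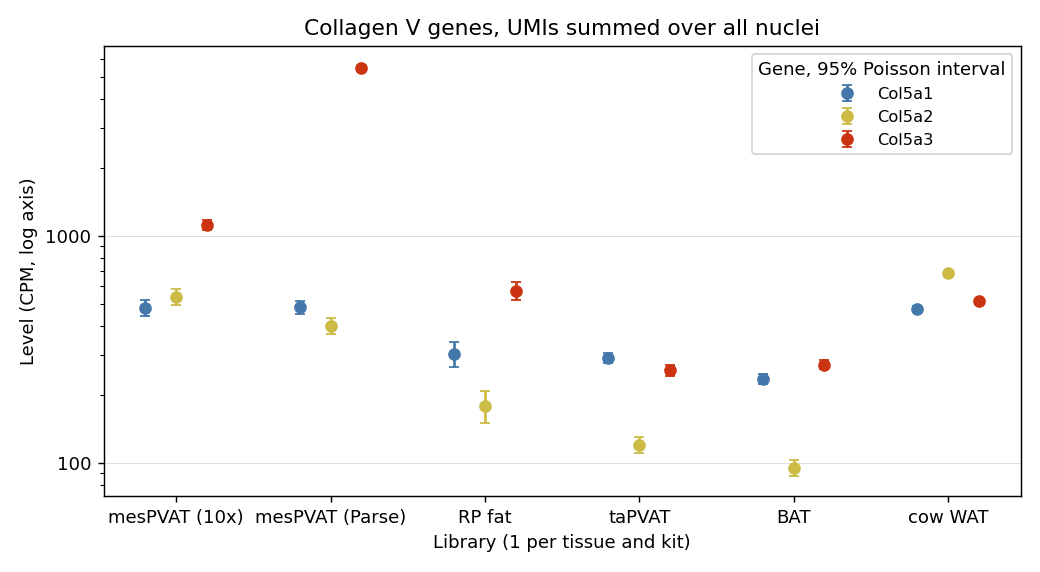
Level of each collagen V gene (CPM on a log axis) in the 6 libraries, with exact 95% Poisson intervals that cover counting error only. Col5a3 stands at 5469 CPM in the Parse library labelled mesPVAT, while Col5a1 stays between 234 and 484 CPM and Col5a2 between 95.3 and 689 CPM in all libraries.

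The 3 genes were compared with each other per kilobase of gene span in the 4 rat Parse libraries, whose build matches the spans. Elsewhere, CPM of different genes stand side by side, and ranks by UMIs are given, without scaling for length. Per kilobase, Col5a3 was at 121 CPM in the library labelled mesPVAT, 12.7 CPM in RP fat, 5.99 CPM in BAT and 5.67 CPM in taPVAT. Col5a1 was at 3.26, 2.03, 1.58 and 1.95 CPM per kilobase in the same libraries, and Col5a2 at 2.69, 1.19, 0.638 and 0.806 CPM per kilobase. On this scale Col5a3 was the highest of the 3 genes in each of the 4 libraries. The span counts introns as well as exons, and whether it is the right length for these counts, in which nuclear RNA is primed partly at the tail, was not tested.

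Col5a3 was found in many nuclei and in quantity where it was high. In the Parse library labelled mesPVAT, 1293 of 3028 nuclei (42.7%, 40.9 to 44.5) held a Col5a3 UMI, with 7.01 UMIs per positive nucleus and up to 78 UMIs in a single nucleus of 3934 UMIs. Positive nuclei made up 48.1% in cow WAT, 25.5% in BAT, 22.6% in taPVAT, 17.5% in the 10x Genomics library and 10.6% in RP fat, with 7.84, 2.49, 2.13, 1.35 and 1.63 UMIs per positive nucleus. These shares move with the depth of the nuclei. Thinned to 200 UMIs per nucleus, with shallower nuclei left out (64.3% of nuclei in the 10x Genomics library, 46.4% in RP fat, 15.7% in the Parse library labelled mesPVAT and 0 elsewhere), the Col5a3-positive share was 36.5% (34.6 to 38.4) in the Parse library labelled mesPVAT, 22.1% (20.3 to 23.9) in the 10x Genomics library, 8.45% (7.09 to 9.97) in RP fat, 6.75% (5.76 to 7.85) in cow WAT, 5.11% (4.31 to 6.01) in BAT and 4.62% (3.86 to 5.48) in taPVAT. At equal depth the order of the libraries was that of the CPM, and the high unthinned shares of cow WAT and the brown depots were no longer there.

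At 200 UMIs, Col5a1 was detected in 9.29% of nuclei of the Parse library labelled mesPVAT, 8.53% in the 10x Genomics library, 8.36% in cow WAT, 6.25% in RP fat, 5.21% in taPVAT and 4.45% in BAT. Col5a2 was detected in 9.77% in the 10x Genomics library, 9.19% in cow WAT, 6.86% in the Parse library labelled mesPVAT, 3.93% in RP fat, 2.70% in taPVAT and 2.11% in BAT. Where Col5a1 or Col5a2 was detected at this depth, 90.4% or more of the positive nuclei had a single UMI in the rat Parse libraries, except for Col5a2 in BAT with 89.5%. For Col5a3 in the library labelled mesPVAT, 40.7% of positive nuclei had a single UMI at this depth.

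To ask which cells hold the transcripts, nuclei were divided by 2 marker pairs. Adipocyte-pair nuclei had a UMI of Plin1, the coat protein of lipid droplets, or of Adipoq, which encodes adiponectin, and none of the stromal pair. Stromal-pair nuclei had a UMI of Pdgfra, the receptor that marks fibroblast-like progenitors, or of Dcn, the proteoglycan decorin, and none of the adipocyte pair. Nuclei with Ptprc (CD45, the common antigen of leukocytes) and neither pair served as cells that should lack collagen V. There were 1387 adipocyte-pair, 110 stromal-pair and 42 Ptprc nuclei in the 10x Genomics library, 669, 111 and 128 in the Parse library labelled mesPVAT, 284, 97 and 58 in RP fat, 1538, 147 and 166 in taPVAT, 1842, 54 and 64 in BAT, and 214, 614 and 291 in cow WAT. Of all nuclei, 26.9% (BAT) to 86.0% (RP fat) had neither pair, and doublets were not removed.

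Each group held more of the other markers of its class than the opposite group did. Summed over the adipocyte markers outside the pair, adipocyte-pair nuclei were at 1570 (RP fat) to 7432 CPM (10x Genomics) and stromal-pair nuclei at 291 (cow WAT) to 1305 CPM (10x Genomics). Summed over Lum, Fbn1, Pi16 and Dpp4, the stromal markers outside the pair, stromal-pair nuclei were at 632 (RP fat) to 8683 CPM (10x Genomics) and adipocyte-pair nuclei at 55.5 (BAT) to 711 CPM (10x Genomics). RP fat had the weakest separation, with 632 against 310 CPM of the stromal markers and with 2 of the 4 at 0 in its stromal-pair nuclei. Pericyte and endothelial markers were also present in the stromal-pair nuclei of the Parse libraries, up to 2317 CPM of pericyte markers in BAT against 620 CPM in its adipocyte-pair nuclei. That exceeded the 1745 CPM of the stromal markers outside the pair in BAT. In the library labelled mesPVAT these stromal markers were at 1180 CPM, below endothelial (1308 CPM) and pericyte markers (1229 CPM). In RP fat they were below endothelial markers (867 CPM). In taPVAT and cow WAT the stromal markers were highest, at 2871 and 2303 CPM. Stromal-pair nuclei thus cannot be read as stromal cells alone, and the part of the other markers in the values below was not tested.

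In white fat, Col5a3 was highest in adipocyte-pair nuclei. It was at 12601 CPM (12301 to 12907) in the adipocyte-pair nuclei of the Parse library labelled mesPVAT against 1977 CPM (1713 to 2270) in its stromal-pair nuclei, a ratio of 6.37 (5.54 to 7.37). In the 10x Genomics library the levels were 1667 CPM (1538 to 1805) and 266 CPM (128 to 490), a ratio of 6.26 (3.38 to 13.1) that rests on 10 UMIs in the stromal-pair nuclei. In RP fat they were 2054 CPM (1794 to 2340) and 434 CPM (278 to 645), a ratio of 4.74 (3.10 to 7.55). In cow WAT they were 1229 CPM (1177 to 1282) and 299 CPM (284 to 315), a ratio of 4.10 (3.84 to 4.39). The intervals of the paired levels did not overlap in any of these 4 libraries. The size of the ratio depends on how nuclei are divided. With at least 2 UMIs of a pair it was 34.6 in the 10x Genomics library and 17.2 in the Parse library labelled mesPVAT, thinning to 200 UMIs gave 3.02 in the former, and with nuclei of both pairs kept in both groups it was 3.97 in the library labelled mesPVAT and 1.66 in cow WAT, where 187 such nuclei hold 44.8% of the COL5A3 UMIs.

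In brown fat the order was the opposite. Col5a3 was at 209 CPM (194 to 224) in the adipocyte-pair nuclei of taPVAT and at 892 CPM (765 to 1033) in its stromal-pair nuclei, 4.27 times as high (3.60 to 5.04). In BAT it was at 215 CPM (203 to 229) in adipocyte-pair nuclei and 1798 CPM (1507 to 2128) in stromal-pair nuclei, 8.35 times as high (6.93 to 9.99). The interval of the BAT stromal-pair nuclei overlapped that of the stromal-pair nuclei of the library labelled mesPVAT, while adipocyte-pair nuclei differed between these libraries by a ratio of 58.5 (54.9 to 62.4). Nuclei with neither pair were at 1947 CPM (1858 to 2040) in the library labelled mesPVAT, level with its stromal-pair nuclei. In BAT they were at 355 CPM (316 to 397), below its stromal-pair nuclei. Adipocyte-pair nuclei of taPVAT and BAT did not differ beyond counting error (1.03, 0.939 to 1.13). Adipocyte-pair nuclei of RP fat exceeded those of taPVAT 9.84-fold (8.44 to 11.4), and those of the 10x Genomics library exceeded them 7.99-fold (7.16 to 8.90), although the last ratio crosses kits. With nuclei of both pairs kept in both groups, the adipocyte-pair to stromal-pair ratio moved from 0.234 to 0.484 in taPVAT and from 0.120 to 0.307 in BAT, by sublibrary it was 0.154 and 0.380 in taPVAT, and after thinning to 200 UMIs its interval in taPVAT included 1 (0.350, 0.145 to 1.02).

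**Figure D2:**
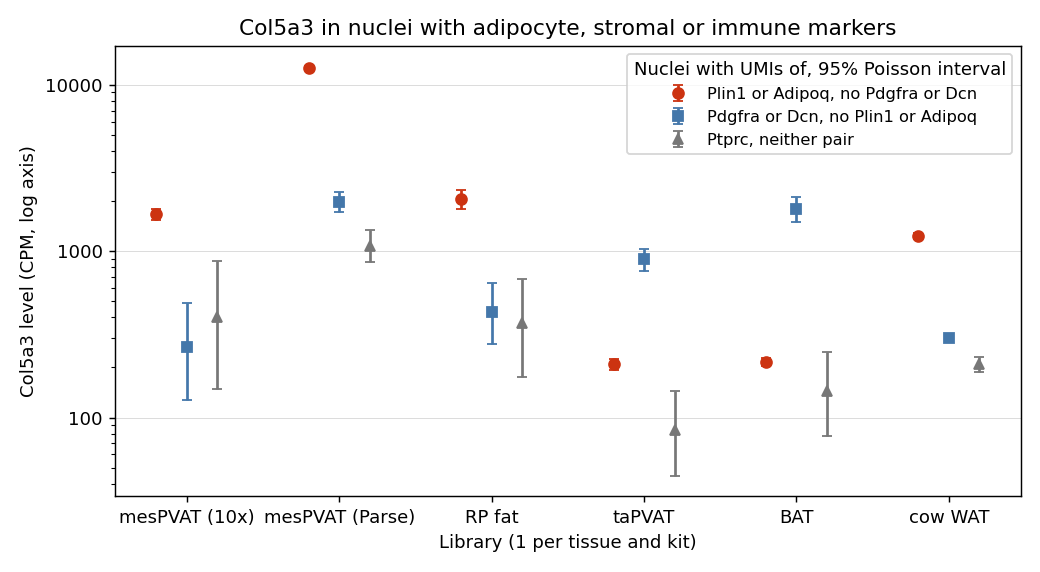
Col5a3 level (CPM on a log axis) in nuclei with Plin1 or Adipoq, with Pdgfra or Dcn, and with Ptprc, for each of the 6 libraries, with exact 95% Poisson intervals. Adipocyte-pair nuclei are highest in the 4 white libraries (1229 to 12601 CPM) and lie below the stromal-pair nuclei in taPVAT and BAT (209 and 215 CPM against 892 and 1798 CPM).

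Ptprc nuclei were taken as background, since free RNA and mixed barcodes can give UMIs in cells that do not express a gene. A single UMI of Ptprc was enough for this group, and other markers were not checked in it. How far Ptprc nuclei stand for background was thus not tested in any library. Their Col5a3 level was 1080 CPM in the Parse library labelled mesPVAT, 403 CPM in the 10x Genomics library, 368 CPM in RP fat, 209 CPM in cow WAT, 145 CPM in BAT and 83.8 CPM in taPVAT. Adipocyte-pair nuclei exceeded it 11.7-fold (9.41 to 14.6) in the library labelled mesPVAT, 5.89-fold (5.25 to 6.63) in cow WAT, 5.58-fold (2.98 to 11.8) in RP fat, 4.14-fold (1.89 to 11.3) in the 10x Genomics library and 2.49-fold (1.45 to 4.70) in taPVAT. In BAT the ratio was 1.48 (0.864 to 2.80), so a difference from the Ptprc nuclei was not detectable at this depth. Stromal-pair nuclei exceeded Ptprc nuclei 12.4-fold (7.01 to 23.9) in BAT and 10.6-fold (6.06 to 20.4) in taPVAT, less so in the library labelled mesPVAT (1.83, 1.41 to 2.39) and in cow WAT (1.44, 1.27 to 1.62), and had intervals that include 1 in the 10x Genomics library (0.661, 0.218 to 2.21) and in RP fat (1.18, 0.543 to 2.76).

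Shares of positive nuclei depend on depth as well as on level, and are given with the median UMIs. Of adipocyte-pair nuclei of the Parse library labelled mesPVAT, 84.6% (81.6 to 87.3) held Col5a3 at a median of 581 UMIs per nucleus, against 27.3% (19.8 to 35.9) of Ptprc nuclei at a median of 484.5 UMIs. In RP fat the shares were 32.7% (27.3 to 38.5) at 287.5 UMIs and 10.3% (3.89 to 21.2) at 314.5 UMIs, and in the 10x Genomics library 30.6% (28.2 to 33.1) at 213 UMIs and 9.52% (2.66 to 22.6) at 234.5 UMIs. In BAT, 26.7% of adipocyte-pair nuclei were positive at 2172 UMIs and 12.5% of Ptprc nuclei at 903.5 UMIs, and in taPVAT 24.6% at 1779.5 UMIs and 4.82% at 725.5 UMIs. In cow WAT, 64.5% of adipocyte-pair nuclei were positive at 4485.5 UMIs and 36.8% of Ptprc nuclei at 3754 UMIs. Thinned to 200 UMIs and divided again by the pairs, 79.8% (75.4 to 83.7) of adipocyte-pair nuclei held Col5a3 in the library labelled mesPVAT, 37.8% (22.5 to 55.2) in cow WAT, 30.5% (26.6 to 34.5) in the 10x Genomics library, 26.2% (18.7 to 35.0) in RP fat, 4.16% (2.96 to 5.66) in BAT and 3.87% (2.64 to 5.45) in taPVAT. At that depth 20.3% (11.3 to 32.2) of the 64 Ptprc nuclei of the library labelled mesPVAT were positive, 10.0% (1.23 to 31.7) of 20 in the 10x Genomics library, 4.69% (0.977 to 13.1) of 64 in cow WAT and 3.03% (0.0767 to 15.8) of 33 in BAT. In RP fat 5 of 24 Ptprc nuclei were positive (20.8%, 7.13 to 42.2), and in taPVAT 0 of 86 (0 to 4.20%). At equal depth the intervals of adipocyte-pair and Ptprc nuclei overlapped in RP fat, BAT, taPVAT and the 10x Genomics library and did not overlap in the library labelled mesPVAT and in cow WAT.

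Read the other way, 566 of the 1293 Col5a3-positive nuclei of the library labelled mesPVAT (43.8%) were adipocyte-pair nuclei, a group that made up 22.1% of its nuclei, and these held 73.8% of all Col5a3 UMIs. Stromal-pair nuclei held 2.22% of the UMIs and nuclei with neither pair 19.5%. The adipocyte-pair part of the Col5a3 UMIs was smaller elsewhere in white fat, at 44.2% in the 10x Genomics library, 46.4% in RP fat and 24.6% in cow WAT. Nuclei with neither pair held 54.3% in the 10x Genomics library and 47.8% in RP fat. In cow WAT, nuclei with both pairs held 44.8%. In BAT, adipocyte-pair nuclei were 68.2% of nuclei and held 63.5% of the Col5a3 UMIs, and stromal-pair nuclei were 2.00% of nuclei and held 7.89%. Of the UMIs of all genes, adipocyte-pair nuclei held 530903 of 1656726 in the library labelled mesPVAT and 5042803 of 6317970 in BAT. Most Col5a3 UMIs of BAT thus lay in adipocyte-pair nuclei, but at 215 CPM, below the 271 CPM of the whole library. That level was not distinguishable from that of the BAT Ptprc nuclei (ratio 1.48, 0.864 to 2.80). It was above that of the BAT immune class defined below, at 39.0 CPM (4.72 to 141) from 2 UMIs. The BAT Ptprc nuclei also held more Col5a2 than the adipocyte-pair nuclei did, at 123 against 51.8 CPM (ratio of adipocyte-pair to Ptprc nuclei 0.422, 0.232 to 0.855). How far the Ptprc nuclei of BAT stand for background was not tested.

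Within the adipocyte-pair nuclei of the library labelled mesPVAT, Col5a3 was spread over the group and not held by a few nuclei. The median nucleus held 6 Col5a3 UMIs, with quartiles at 2 and 14, and 103 of the 669 held none. Col5a3 made up 1.05% of the UMIs of the median nucleus and 2.59% or more in the top 10% of nuclei. By number of UMIs it stood at place 2 among all genes in these nuclei, at place 6 in the adipocyte-pair nuclei of RP fat and at place 35 in those of the 10x Genomics library, but at place 763 in BAT and 797 in taPVAT. Divided by depth into 4 groups of like size, the adipocyte-pair nuclei of the library labelled mesPVAT were at 9389, 13127, 15033 and 11841 CPM from the shallowest to the deepest, so the level was high at every depth. In RP fat the same groups were at 668, 2213, 2457 and 2039 CPM, with 6 UMIs behind the first.

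Each Parse library was read as 2 sublibraries, and its nuclei entered the first barcoding round in separate wells. Col5a3 was at 5021 and 5954 CPM in the sublibraries of the library labelled mesPVAT, 560 and 592 CPM in RP fat, 257 and 256 CPM in taPVAT, 253 and 289 CPM in BAT, and 538 and 494 CPM in cow WAT. By first-round well it was at 5803 and 5206 CPM in the library labelled mesPVAT and at 754 and 482 CPM in RP fat. The RP fat wells differed beyond their counting intervals (656 to 861 and 426 to 543 CPM) and lay on either side of the 515 CPM of cow WAT. In the library labelled mesPVAT, intervals were apart between wells (5630 to 5981 and 5060 to 5355 CPM) and between sublibraries (4872 to 5172 and 5786 to 6126 CPM). The cow WAT sublibraries were apart as well (522 to 555 and 479 to 508 CPM), while the splits of taPVAT overlapped. The BAT wells were at 301 CPM (279 to 325), 240 CPM (222 to 260) and 277 CPM (252 to 304), on either side of the 256 CPM of taPVAT. For Col5a1 the BAT wells were at 290 CPM (268 to 313), 209 CPM (192 to 228) and 196 CPM (175 to 219). For Col5a2 they were at 118 CPM (104 to 133), 75.3 CPM (65.0 to 86.8) and 96.2 CPM (81.5 to 113). The interval of the first BAT well held the taPVAT level of Col5a1 (290 CPM) and of Col5a2 (120 CPM). The spread between such splits can thus exceed counting error.

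Col5a1 and Col5a2 had smaller ratios between the pairs than Col5a3 in each white library, on either side of 1. Col5a1 had an adipocyte-pair to stromal-pair ratio of 0.740 (0.489 to 1.16) in the 10x Genomics library, 1.08 (0.818 to 1.44) in the Parse library labelled mesPVAT and 1.11 (0.596 to 2.14) in RP fat, all with intervals that include 1. In cow WAT it was 1.499 (1.399 to 1.605). In the brown depots Col5a1 was lower in adipocyte-pair nuclei, at 236 against 1002 CPM in taPVAT (ratio 0.235, 0.201 to 0.276) and 225 against 799 CPM in BAT (0.282, 0.218 to 0.372). Col5a2 had ratios of 1.46 (1.04 to 2.11) in the Parse library labelled mesPVAT, 0.470 (0.328 to 0.690) with the 10x Genomics kit, 0.816 (0.390 to 1.77) in RP fat and 0.944 (0.887 to 1.00) in cow WAT. It fell furthest in the brown depots, with 58.1 against 564 CPM in taPVAT (0.103, 0.0814 to 0.131) and 51.8 against 826 CPM in BAT (0.0627, 0.0474 to 0.0841). The ratios of Col5a1 and Col5a2 in the library labelled mesPVAT turned to 0.592 and 0.692 when nuclei were classed by full marker lists, and were 3.71 and 3.73 with at least 2 UMIs of a pair, so their direction there depends on how nuclei are classed.

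**Figure D3:**
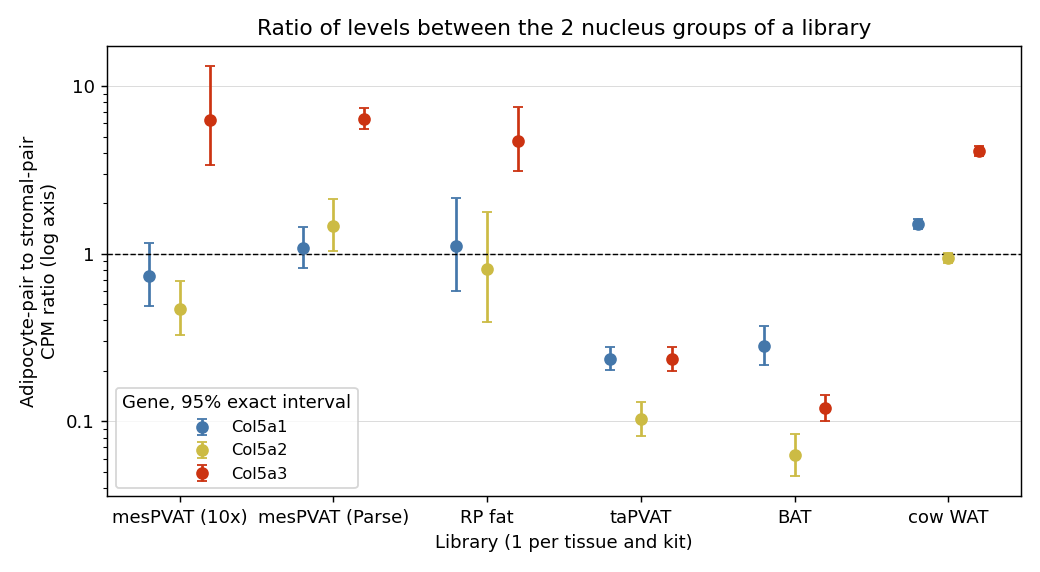
Ratio of the level in adipocyte-pair nuclei to that in stromal-pair nuclei (log axis, dashed line at 1) for each gene and library, with exact 95% intervals. Col5a3 lies at 4.10 to 6.37 in the white libraries, where Col5a1 and Col5a2 lie between 0.470 and 1.499, and all 3 genes lie at 0.0627 to 0.282 in taPVAT and BAT.

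Nuclei were also assigned to 9 classes by the number of marker UMIs (at least 2, with no tie). Col5a3 in adipocytes by this rule was at 13469 CPM in the library labelled mesPVAT, 2707 CPM in RP fat, 1841 CPM in the 10x Genomics library, 1149 CPM in cow WAT, 236 CPM in taPVAT and 227 CPM in BAT. Nuclei led by the brown adipocyte markers Ucp1 (uncoupling protein), Cidea, Cpt1b and Gk were lower still, at 138 CPM (99.4 to 187) in taPVAT and 153 CPM (115 to 199) in BAT. In the stromal progenitor class, Col5a3 was at 2678 CPM in BAT, 2593 CPM in the library labelled mesPVAT, 923 CPM in taPVAT, 496 CPM in the 10x Genomics library, 457 CPM in RP fat and 333 CPM in cow WAT. The BAT class is 35 nuclei.

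In mural cells of vessels, Col5a3 was above the Ptprc nuclei in every Parse library but RP fat. In nuclei with mostly pericyte and smooth muscle markers it was at 2974 CPM (2691 to 3279) in the library labelled mesPVAT, 574 CPM (468 to 696) in taPVAT, 562 CPM (521 to 606) in cow WAT, 463 CPM (399 to 536) in BAT and 392 CPM (224 to 636) in RP fat, where Ptprc nuclei were at 368 CPM (176 to 676) and unclassed nuclei at 423 CPM. The Ptprc intervals of the others were 862 to 1337 CPM in the library labelled mesPVAT, 44.6 to 143 CPM in taPVAT, 187 to 232 CPM in cow WAT and 77.3 to 248 CPM in BAT, all below those of the mural nuclei. Unclassed nuclei were at 1669 CPM in the library labelled mesPVAT, 321 CPM in taPVAT and 351 CPM in cow WAT, below the mural nuclei. In BAT, unclassed nuclei were at 476 CPM (383 to 584), level with the mural nuclei. The 10x Genomics library had 11 mural nuclei with 1 Col5a3 UMI. Endothelial nuclei of the same Parse libraries were at 1131, 73.1, 152, 163 and 246 CPM, lower in each, although the intervals overlap in RP fat (141 to 400 CPM). Immune nuclei were at 818 CPM in the library labelled mesPVAT, 132 CPM in taPVAT, 199 CPM in cow WAT, 162 CPM (33.3 to 472) in RP fat and 39.0 CPM in BAT.

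Nuclei with mostly markers of Schwann cells, which ensheathe nerve fibres, were few, and were richer in Col5a3 than adipocytes only in the brown depots. There were 22 of them in BAT with 91 Col5a3 UMIs (2213 CPM, 1781 to 2717; 90.9% positive), 11 in taPVAT with 20 UMIs (1275 CPM, 779 to 1969) and 8 in the library labelled mesPVAT with 26 UMIs (5033 CPM, 3288 to 7374). The adipocyte class was at 227 CPM (213 to 241) in BAT and 236 CPM (220 to 252) in taPVAT, below the intervals of the Schwann class. In the library labelled mesPVAT it was above, at 13469 CPM. RP fat had 3 Schwann-class nuclei with 6 UMIs (2034 CPM, 746 to 4427), against 2707 CPM in adipocytes. Cow WAT had 6 with 22 UMIs (1142 CPM, 716 to 1729), against 1149 CPM in adipocytes. The 10x Genomics library had 1 such nucleus with 0 UMIs. Col5a2 in the same 22 BAT nuclei was at 1362 CPM (1029 to 1768) against 49.7 CPM in BAT adipocytes.

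Col5a1 and Col5a2 were higher in the stromal class than in adipocytes in the brown depots, and by less in the libraries labelled mesPVAT. Col5a1 was at 1233 CPM in stromal progenitors of taPVAT and 1221 CPM in those of BAT, against 258 and 234 CPM in the adipocytes. Col5a2 was at 681 and 1184 CPM in these stromal progenitors, against 71.3 and 49.7 CPM in the adipocytes. In the 10x Genomics library, Col5a1 was at 1234 CPM (988 to 1522) in stromal progenitors against 443 CPM (386 to 508) in adipocytes, and Col5a2 at 851 CPM (649 to 1095) against 498 CPM (437 to 566). In the Parse library labelled mesPVAT, Col5a1 was at 1099 CPM (840 to 1411) against 650 CPM (583 to 723). The Col5a2 intervals overlapped there, as did those of both genes in RP fat. In cow WAT only Col5a2 was higher, at 1176 against 936 CPM. In the 10x Genomics library, where nuclei with mostly mesothelial markers were most numerous, Col5a2 was at 986 CPM (760 to 1259) in 193 of them, where Col5a3 was at 108 CPM (43.4 to 222).

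**Figure D4:**
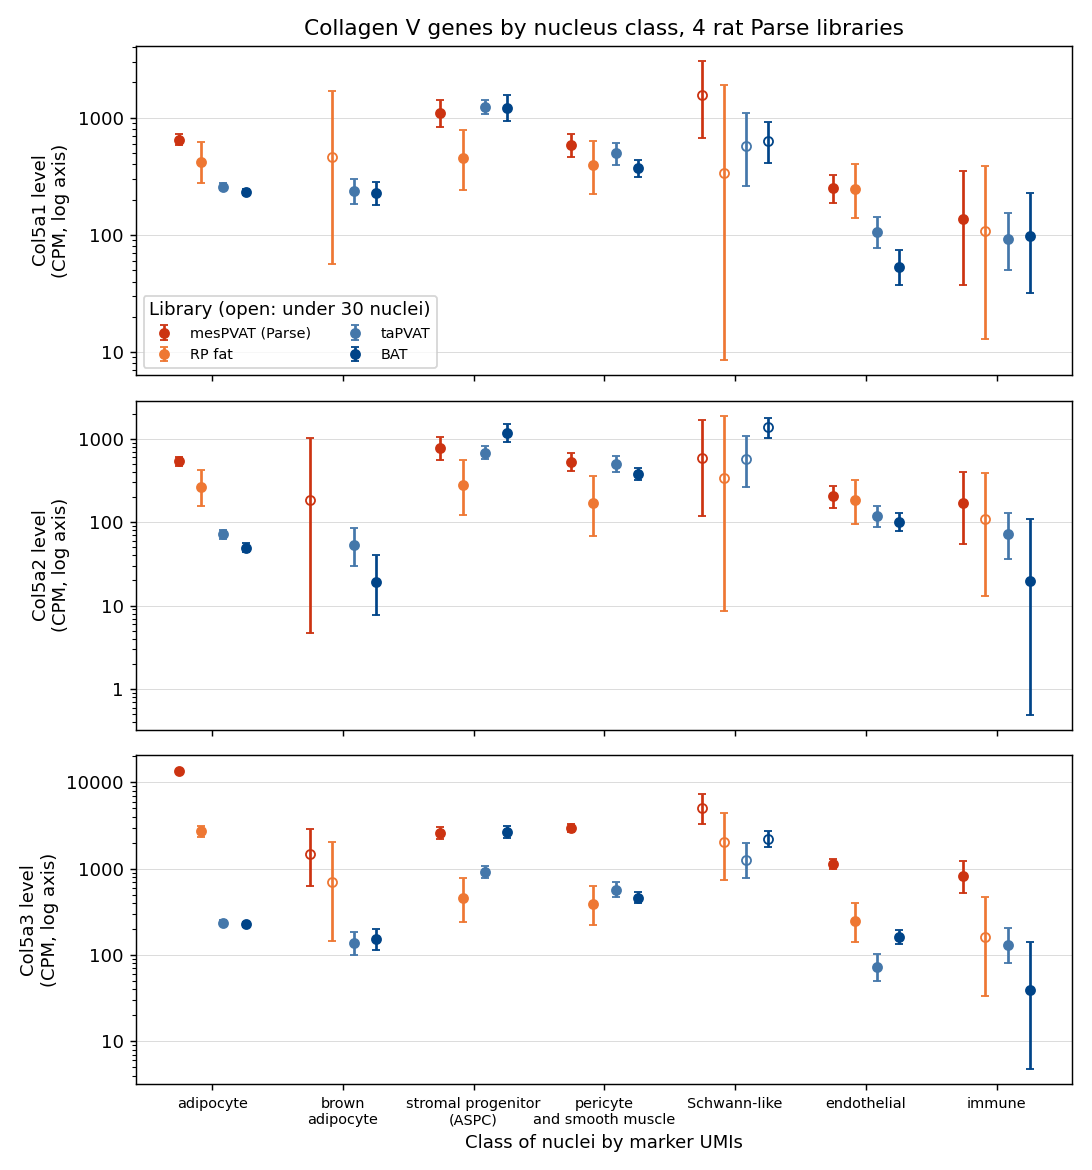
Level (CPM on log axes) of Col5a1, Col5a2 and Col5a3 in nuclei classed by marker UMIs, for the 4 rat Parse libraries, with exact 95% Poisson intervals, open symbols for classes under 30 nuclei and classes with 0 UMIs not drawn. Col5a3 in the adipocyte class falls from 13469 and 2707 CPM in the white depots to 236 and 227 CPM in the brown ones, while the stromal progenitor class is at 457 to 2678 CPM.

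Within the brown depots, adipocyte-pair nuclei were split by their UMIs of the 4 brown adipocyte markers, a split chosen after values were seen. Col5a3 was at 532 CPM (441 to 636) in the 227 taPVAT nuclei with none, 477, 201 and 184 CPM in those with 1, 2 to 4 and 5 to 9 UMIs, and 165 CPM (149 to 182) in the 687 nuclei with 10 or more. In BAT the levels were 677 CPM (570 to 799) in 167 nuclei with none, then 598, 516 and 277 CPM, and 139 CPM (128 to 152) in the 1062 nuclei with 10 or more. Thinned to 500 UMIs, Col5a3 was at 556 CPM in taPVAT nuclei with none and 143 CPM in those with 2 or more, and at 607 and 132 CPM in BAT. Col5a1 did not fall in this way, with 196 CPM (121 to 300) in BAT nuclei with none and 244 CPM (203 to 292) in those with 2 or more after thinning, whereas Col5a2 was at 121 CPM (64.7 to 208) and 28.0 CPM (15.3 to 47.0). Pericyte markers moved with the split in the same direction, from 1348 to 287 CPM in taPVAT and from 1556 to 416 CPM in BAT, as did endothelial markers (2005 to 462 CPM and 3103 to 614 CPM) and the stromal markers outside the pair (222 to 79.1 CPM and 101 to 42.8 CPM), while the other adipocyte markers rose from 3854 to 7048 CPM in taPVAT and from 3727 to 7711 CPM in BAT. Schwann markers fell as well, from 186 to 64.2 CPM in taPVAT and from 168 to 83.5 CPM in BAT. In BAT nuclei with 1 brown marker UMI they were at 553 CPM. Thinned to 500 UMIs, they went from 121 CPM with none to 34.9 CPM with 2 or more in taPVAT, and from 383 to 44.0 CPM in BAT. The part of these other cells, and of depth, which rose from a median of 784 to 2995 UMIs in taPVAT, in the Col5a3 values was not tested.

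**Figure D5:**
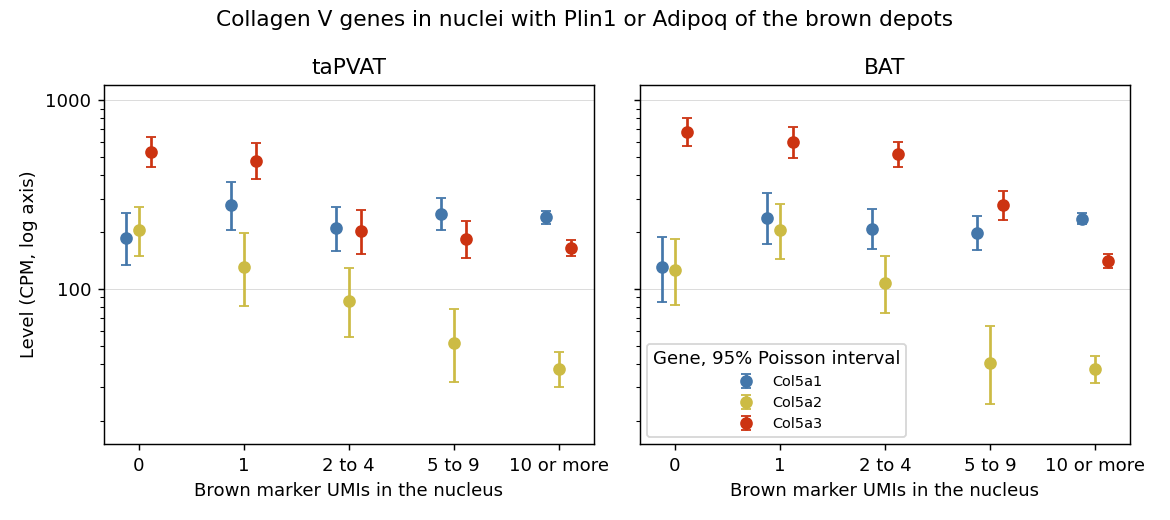
Level (CPM on a log axis) of the 3 genes in adipocyte-pair nuclei of taPVAT and BAT, by the number of UMIs of Ucp1, Cidea, Cpt1b and Gk in the nucleus, with exact 95% Poisson intervals. Col5a3 goes from 532 to 165 CPM in taPVAT and from 677 to 139 CPM in BAT between nuclei with none and with 10 or more, and Col5a2 falls too, while Col5a1 does not.

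In the white rat libraries, few adipocyte-pair nuclei had brown markers. In the library labelled mesPVAT, Col5a3 was at 12676 CPM (12352 to 13006) in 591 adipocyte-pair nuclei with none and at 11944 CPM (11093 to 12843) in 64 nuclei with a single UMI.

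The genes that build, process and bind collagen V were set beside it by their ratio between adipocyte-pair and stromal-pair nuclei, over lists of fibrillar collagens, processing and cross-linking enzymes, fibril regulators, receptors and co-receptors, and basement membrane and pericellular collagens. A gene counted where at least 5 UMIs were expected in each group at equal rates, and past 2-fold was read after adding 0.5 UMI to each group. With 1 library a tissue, these counts are descriptions. In the 10x Genomics library, 24% of 1685 genes were past 2-fold on the adipocyte side and 11.2% on the stromal side, with Col5a3 on the former and Col5a2 on the latter. In the Parse library labelled mesPVAT, the shares were 11.4% and 11% of 4109 genes, and in RP fat 9.64% and 7.02% of 2335 genes, with Col5a3 on the adipocyte side and neither of the others past 2-fold. In taPVAT, 17.4% of 6186 genes were on the adipocyte side and 15.6% on the stromal side, the latter with all 3 collagen V genes. In BAT, 25.8% of 2928 genes were on the adipocyte side and 10.2% on the stromal side, the latter with Col5a1 and Col5a3, while Col5a2 had too few expected UMIs to be counted. In cow WAT, 7.93% of 15835 genes were on the adipocyte side, with COL5A3, and 13.4% on the stromal side.

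The list of fibrillar collagens, which holds the chains of collagen I among others, had negative median log2 ratios, that is, toward the stromal side, in all 6 libraries. In BAT the median is the midpoint of 2 genes on opposite sides, Col3a1 and Col11a2. Of the fibrillar collagens counted, 3 of 3 in the 10x Genomics library, 4 of 5 in the library labelled mesPVAT, 3 of 5 in RP fat, 4 of 5 in taPVAT, 1 of 2 in BAT and 3 of 7 in cow WAT were past 2-fold on the stromal side, with median log2 ratios of -2.35, -1.54, -1.30, -3.94, -1.98 and -0.98 against 0.23, -0.15, -0.04, -0.07, 0.21 and -0.16 over all genes counted. Col3a1, a partner of collagen I in fibrils, was the only gene of the lists past 2-fold in the same direction in all 5 rat libraries, and was 2.91 (library labelled mesPVAT) to 33.9 (BAT) times as high in stromal-pair nuclei. Col1a1, a chain of collagen I itself, was past 2-fold on the stromal side in each of the 4 rat libraries where it was counted. It was at 442.5 CPM in the stromal-pair nuclei of the library labelled mesPVAT and at 105 CPM in its adipocyte-pair nuclei, where Col5a3 had 1977 and 12601 CPM. In taPVAT Col1a1 was at 1169 CPM in stromal-pair nuclei and 60.9 CPM in adipocyte-pair nuclei. The 1 fibrillar collagen gene past 2-fold on the adipocyte side in taPVAT and in BAT was Col11a2, at 100 and 102 CPM in adipocyte-pair nuclei against 15.1 and 40.0 CPM, from 3 stromal UMIs each. In cow WAT it was COL27A1, at 157 against 67.9 CPM, and COL3A1 was only 1.20 times as high in stromal-pair nuclei there.

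Processing and cross-linking enzymes were past 2-fold on the stromal side in 8 of 10 counted in taPVAT and 8 of 21 in cow WAT, against 1 of 5 in the 10x Genomics library, 0 of 7 in the library labelled mesPVAT, 1 of 3 in RP fat and 1 of 2 in BAT. Adamts2, which trims the amino end of procollagens, was 13.9 times as high in the stromal-pair nuclei of taPVAT. Loxl2, an enzyme that cross-links collagens, was past 2-fold on the adipocyte side in the libraries labelled mesPVAT, at 333 against 78.7 CPM with the Parse kit and 509 against 240 CPM with the 10x Genomics kit, but on the stromal side in cow WAT, at 42.6 against 117 CPM. On the adipocyte side were 2 of 5 of these enzymes in the 10x Genomics library and 1 of 7 in the library labelled mesPVAT. Col1a1, Adamts2 and Loxl2 were picked as examples after their values were seen.

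Fibril regulators were past 2-fold on the stromal side in 2 of 2 counted in the 10x Genomics library, 1 of 4 in the library labelled mesPVAT, 0 of 2 in RP fat, 2 of 2 in taPVAT, 1 of 1 in BAT and 5 of 7 in cow WAT. Of the receptors, 2 of 3, 2 of 4, 1 of 3, 1 of 3, 1 of 2 and 3 of 8 were on that side in the same order of libraries. On the adipocyte side were 1 fibril regulator in the library labelled mesPVAT (Thbs2, 138 against 29.5 CPM, from 3 stromal UMIs) and 1 receptor each in the 10x Genomics library (Itga1, 202 against 26.6 CPM, from 1 stromal UMI) and in cow WAT (DDR1, 55.8 against 13.0 CPM), named, like COL27A1 above, after their values were seen. Gpc1, which encodes glypican 1, was too low to be counted in the rat libraries, with 0 UMIs in both groups of the 10x Genomics library, 3 UMIs in adipocyte-pair and 1 in stromal-pair nuclei of the library labelled mesPVAT, and 15 and 1 in BAT. In cow WAT GPC1 was at 29.4 CPM in adipocyte-pair nuclei and 15.2 CPM in stromal-pair nuclei. Of the basement membrane and pericellular collagens, 1 of 4, 3 of 6, 1 of 6, 4 of 6, 3 of 3 and 3 of 6 were past 2-fold on the stromal side, and 1 of 4 in the 10x Genomics library and 3 of 6 in cow WAT on the adipocyte side. The last were COL4A1, COL4A2 and COL15A1, which encode chains found in basement membranes.

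The genes most like each collagen V gene were sought over 21 points, the classes with at least 30 nuclei in the 4 rat Parse libraries, by Pearson's r of log2(CPM + 10) among 3164 genes with at least 100 UMIs in 3 or more of these libraries. Points of a library share its depth and its free RNA, so r is a description. Col5a3 was most like Anxa5 (r = 0.838), Ccdc80 (0.829), Phldb1 (0.824), Col5a2 (0.804) and Tln2 (0.793). Col5a2 was most like Nhsl1 (0.908), Dclk1 (0.901), Plekhh2 (0.901), the collagen VI chain gene Col6a3 (0.896) and Kirrel1 (0.896). Col5a1 was most like Npas2 (0.856), Plce1 (0.846), Scara5 (0.829), Meis1 (0.826) and Meis2 (0.821). Among themselves, Col5a1 and Col5a2 had r = 0.787, and Col5a1 and Col5a3 had r = 0.741.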

How the data were processed

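Single-nucleus RNA-seq counts of 5 rat libraries and 1 cow library were analysed. For the Parse libraries the authors separated rat from cow reads, ran split-pipe on GRCr8 or ARS-UCD1.3, and deposited UMI counts per gene and barcode of the filtered matrix. For the 10x Genomics library they deposited Cell Ranger UMI counts, with Rnor_6.0 named in the supplementary methods. FastQC and Scanpy are named in the submitters' processing notes. Whether intronic reads were counted is not given in the sources used here. The deposited matrices hold barcodes beyond the study's later filters. Groups came from the labels, and the rat white libraries keep their labels.

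All deposited barcodes were used, without a doublet caller, so doublets remain. UMIs were summed over nuclei and scaled to CPM. Sums have exact Poisson, shares exact binomial (Clopper-Pearson) and ratios exact conditional intervals at 95%, which cover counting error only. Nuclei were thinned without replacement (seed 20). Total UMIs per library ranged from 845316 to 16827260, so a UMI was worth more in the shallow white rat libraries. A class with 0 UMIs has a limit of 3 counts. With 1 library per condition, no test was made. The members, the lists and the rules were chosen with earlier results of these data known. Genes to be named were the members, the pairs and Ptprc, list genes past 2-fold in the same direction in all 5 rat libraries, and the 5 genes most like each member. Others are said to be picked later or are list examples. The ratio step was tested on simulated data. Alternatives were the study's filters (100 to 15000 UMIs, at most 4500 genes and 3% mitochondrial UMIs), other denominators, depths, classes and sublibraries. RefSeq gene spans and promoter windows (GRCr8) matched all 3 rat genes by symbol. Python 3.11.15, numpy 2.4.6, scipy 1.17.1, pandas 2.3.3 and matplotlib 3.10.9 were used.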

Additional observations from a re-analysis of the deposited data

Results flagged for a closer look

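The ratio of Col5a3 between adipocyte-pair and stromal-pair nuclei was picked out because it lay above 1 in every white rat library and below 1 in every brown one. In the white rat libraries the value was 6.26 (3.38 to 13.1) for 10x Genomics mesPVAT, 6.37 (5.54 to 7.37) for Parse mesPVAT by label and 4.74 (3.10 to 7.55) for RP fat by label. The brown depots had 0.234 (0.198 to 0.277) for taPVAT and 0.120 (0.1001 to 0.144) for BAT. The difference between white and brown depots was not tested, since each depot and kit has 1 library. The white rat libraries are also the shallowest, with medians of 161 to 346 UMIs per nucleus against 1246 and 1706 UMIs in the brown ones. Nuclei isolation differed too, since taPVAT was spun at a lower speed than the white tissues on the Parse kit. The parts of depth and of isolation were not tested and cannot be told apart from that of the depot.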

How the results depend on the processing

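No paired analysis was possible because each condition has 1 library. The Col5a3 ratio between adipocyte-pair and stromal-pair nuclei kept its side of 1 in every library under every alternative that gave a value. Of its values under the alternatives 19 lay within the counting interval of the reported value and 21 outside it, and for its CPM 14 lay within and 14 outside. With at least 2 UMIs of the pair it was 34.6 in the 10x Genomics library, 17.2 in the Parse library labelled mesPVAT and 4.72 in cow WAT. With nuclei of both pairs kept in both groups it was 3.97 (labelled mesPVAT), 0.484 (taPVAT), 0.307 (BAT) and 1.66 (cow WAT). Full marker lists gave 5.19 (labelled mesPVAT), 0.0847 (BAT) and 3.45 (cow WAT), and the study's filters 5.25 (labelled mesPVAT) and 3.74 (cow WAT). Nuclei thinned to 200 UMIs gave 3.02 (10x Genomics), 5.47 (labelled mesPVAT), 0.350 (taPVAT, 0.145 to 1.02) and 5.61 (cow WAT). Single sublibraries gave 5.52 (labelled mesPVAT, the second), 0.154 and 0.380 (taPVAT), and 0.0864 and 0.151 (BAT). The Col5a3 CPM moved with the study's filters to 5818 (labelled mesPVAT) and 398 (cow WAT), with nuclei of at least 500 UMIs to 898 (10x Genomics) and 6468 (labelled mesPVAT), and without mitochondrial genes and the top gene to 5779 (labelled mesPVAT), 292 (taPVAT), 310 (BAT) and 579 (cow WAT). By sublibrary it was 5021 and 5954 (labelled mesPVAT), 253 and 289 (BAT), and 538 and 494 (cow WAT). Ratios of the other genes turned to the other side of 1 in the cases that follow. Col5a1 went to 0.592 with full lists and 0.902 with the study's filters (labelled mesPVAT), to 0.475 with at least 2 UMIs and 0.925 with full lists (RP fat), and to 0.555 with thinning to 200 UMIs (cow WAT). Col5a2 went to 0.692 with full lists (labelled mesPVAT), and to 1.01 with both pairs kept and 1.34 with thinning to 200 UMIs (cow WAT). Thinning to 500 UMIs also turned Col5a1 to 0.736 and Col5a2 to 0.938 (labelled mesPVAT), and Col5a2 to 1.02 (cow WAT). The brown marker ratio of Col5a3, added after the values were seen, was 3.22 in taPVAT and 4.86 in BAT, and 3.90 and 4.60 after thinning to 500 UMIs. In taPVAT it was 2.33 and 4.15 by sublibrary. Causes of these moves were not tested. Depth limits the white rat libraries most, where stromal-pair values rest on 10 (10x Genomics) and 24 (RP fat) Col5a3 UMIs.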
